A study of Rattus norvegicus with 8 samples.

Results

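The comparison described here is that of AM21-treated with untreated rat liver 24 h after partial hepatectomy (PHx), the surgical removal of 70% of the liver. AM21 is an oligonucleotide antisense to the microRNA miR-21, built in part from locked nucleic acids (LNA), which bind RNA tightly. The comparison takes 4 of the 8 Affymetrix arrays of the series, chosen by the time, treatment and diet that the labels give. All were of liver from male rats of the outbred Sprague-Dawley strain, 24 h after PHx. The pair-fed untreated and ethanol-fed untreated rats had received no oligonucleotide. The pair-fed AM21 and ethanol-fed AM21 rats had been injected intraperitoneally with 7.5 mg/kg AM21 at 72 h before the operation and a second time directly after it. Ethanol-fed rats were on a chronic ethanol diet, and pair-fed rats on the carbohydrate control diet.

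Each array held RNA pooled from 3 rats (AM21) or 4 rats (untreated), and how far single animals differ was not measured. The 2 diets gave 2 matched pairs of arrays, a pair-fed pair and an ethanol-fed pair, and each gene has 1 AM21 minus untreated difference in each. AM21 and untreated rats carry separate ranges of animal identifiers, and treatment therefore cannot be told apart from cohort in any value below. Rats given a control oligonucleotide, saline or a sham operation were not analysed here.

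MicroRNAs are short RNAs that guide Argonaute proteins to messenger RNAs, mostly through bases 2 to 8 of the microRNA, called the seed, and lower their stability and translation. miR-21 is made from a hairpin at the end of the Vmp1 gene and is among the microRNAs that are raised in regenerating liver. Its described targets include Pdcd4, a translation inhibitor, Spry1 and Spry2, inhibitors of receptor tyrosine kinase signalling, and Timp3 and Reck, inhibitors of matrix-degrading proteases. An antisense oligonucleotide pairs with the mature microRNA and blocks it, with or without degradation of the microRNA.

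The sequences of the miR-21 gene are shown because they are what AM21 is directed against. They are from RefSeq (rat assembly GRCr8), on the minus strand of chromosome 10, with the seed of each mature form, and the 5p form within the hairpin, in capitals. The 5p form lies at chr10:71902653-71902674, the 3p form at chr10:71902615-71902636 and the hairpin at chr10:71902600-71902691.
rno-miR-21-5p: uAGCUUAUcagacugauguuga
rno-miR-21-3p: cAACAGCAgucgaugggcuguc
rno-mir-21 hairpin: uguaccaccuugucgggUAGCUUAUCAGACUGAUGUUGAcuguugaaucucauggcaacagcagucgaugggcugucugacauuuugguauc
A messenger RNA site complementary to the 5p seed reads AUAAGCU. Of 724 mature rat microRNAs in the RefSeq table, 1 has this seed, miR-21-5p itself.

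The arrays measured gene expression with 36685 probe sets, as log2 values after RMA (robust multi-array average, which corrects background, equalises array distributions and summarises probes). On the 24 h arrays these values ran from 0.481 to 13.3, with array medians of 4.13 to 4.23. A single gene symbol was given for 18511 probe sets, which stood for 18166 genes, and 8728 genes with a mean of at least 5 over the 4 arrays were tested. RMA values carry no detection call, so a level under 5 was not shown to be above background and the size of a difference that rests on it is uncertain. The tissue label was borne out by hepatocyte genes: Alb (albumin) had log2 levels from 12.29 to 12.38, and Apoh and Vtn, secreted by hepatocytes, were between 11.53 and 12.22 on every array. The first principal component of the 4 arrays held 53.4% of the variance and had the pair-fed AM21 array at one end and the ethanol-fed untreated array at the other.

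No gene passed the test of AM21 against untreated. In the limma fit with diet as a covariate, 0 of 8728 genes (0%) had an adjusted p under 0.05, the smallest being 0.243, and 826 had an unadjusted p under 0.05. With 1 residual degree of freedom this fit has little precision, and an exact permutation test of 2 against 2 arrays cannot give a p below 0.333. A rule of size therefore stands beside it: 10 genes (0.115%) were at least 2-fold lower with AM21 in both diet pairs, and 0 genes (0%) were at least 2-fold higher in both. In sign alone, 1659 genes (19%) were higher with AM21 in both pairs, 3551 (40.7%) were lower in both and 3518 differed between the pairs. The excess of lower genes followed the scaling of the arrays. The median over all tested genes was -0.09 in the pair-fed and -0.03 in the ethanol-fed pair, and after each array was centred on its median the counts were 2375 higher and 2628 lower. Differences below are log2 AM21 minus untreated, in the order pair-fed then ethanol-fed, and levels are log2 RMA levels. Counts of list members higher or lower in both pairs are to be read against the shares of all genes. Those shares were 19% and 40.7% as deposited, and 27.2% and 30.1% after centring.

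**Figure D1:**
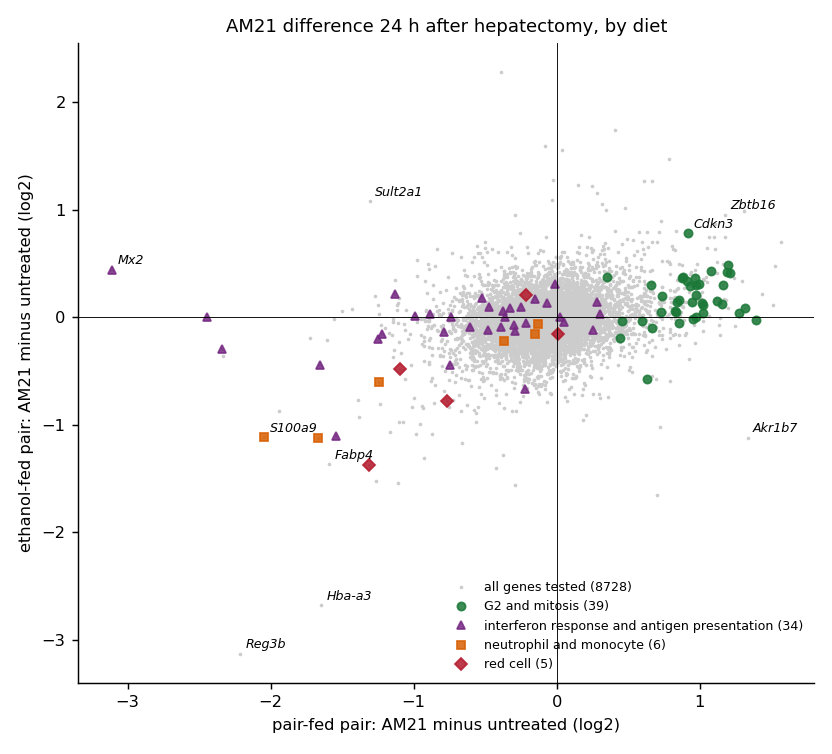
AM21 minus untreated log2 difference 24 h after hepatectomy for each of 8728 genes (grey points), in the pair-fed pair (horizontal axis) and the ethanol-fed pair (vertical axis), with 4 gene lists coloured. The 39 mitosis genes lie to the right of 0 on the pair-fed axis, 6 of 6 neutrophil and monocyte markers lie below 0 on both axes, and Reg3b and Hba-a3 are the lowest on the ethanol-fed axis.

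The genes that were lowest with AM21 in both pairs encode a secreted lectin of injured epithelia, haemoglobins, neutrophil proteins, a fatty acid carrier and a neuropeptide. Reg3b, a secreted lectin of the acute phase and of pancreatic and gut injury, had levels of 6.48 and 6.55 in the pair-fed and ethanol-fed untreated livers. With AM21 its levels were 4.27 and 3.42, both under the level minimum. The groups did not overlap, as for 26.4% of all genes with both AM21 arrays below both untreated arrays and 9.1% with both above. The differences were -2.21 and -3.13 (fitted -2.67 ± 0.23 SE, limma adjusted p = 0.243). Before the operation the 4 pools were between 2.75 and 3.44, so at 24 h its level was above the minimum in the untreated pools and not in the AM21 pools. The 0.243 is shared by many genes, since the adjustment ties neighbouring p-values.

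The Reg3b promoter is shown because this gene differed the most in the fit. It covers 250 bases before to 50 after the RefSeq start at chr4:112419526-112419825 (GRCr8, plus strand), and capitals mark the STAT motif TTCNNNGAA, searched on both strands.
Reg3b: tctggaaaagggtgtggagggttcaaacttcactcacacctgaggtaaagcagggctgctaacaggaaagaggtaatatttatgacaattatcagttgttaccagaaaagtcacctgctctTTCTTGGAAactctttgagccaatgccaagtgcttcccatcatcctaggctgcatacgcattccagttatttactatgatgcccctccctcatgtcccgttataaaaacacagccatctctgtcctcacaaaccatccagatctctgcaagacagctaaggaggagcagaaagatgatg
This motif was found in the promoters of 3 of the 9 lowest genes that had one in the table. It was in 7.06% of 7325 promoters of tested genes and in 8.87% of all 33469 rat promoters of the same length. The 9 were picked for their differences in these data, and 3 is too few to compare with these shares. All are matches of letters, not measured sites.

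Fabp4, a fatty acid carrier of fat cells, macrophages and endothelium, was at 6.46 and 7.11 with AM21 and at 8.05 and 8.48 without (differences -1.59 and -1.37). Npy, which encodes neuropeptide Y, was at 6.23 and 6.11 with AM21 against 7.49 and 7.64. Neither gene had overlapping groups. Ces2e, a carboxylesterase, was at 4.30 and 5.56 against 5.41 and 7.10, so that AM21 was lower within each diet while the groups overlapped across diets. Ifi47, an interferon-inducible GTPase, showed the same layout, with 6.27 and 7.94 against 7.81 and 9.05. Mocos, which sulfurates the molybdenum cofactor, was at 5.37 and 5.78 against 6.53 and 6.84. Just outside the 2-fold limit were Eif4ebp3, a repressor of cap-dependent translation (-0.98 and -1.09), and Cyp17a1, a steroid hydroxylase (-1.10 and -0.97). Just inside were Mocos (-1.17 and -1.07) and Ifi47 (-1.54 and -1.11). The 10 genes of the size rule were Reg3b, Hba-a3, Fabp4, Hbb-b1, Npy, S100a8, S100a9, Ces2e, Ifi47 and Mocos.

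Haemoglobin transcripts were lower with AM21 in both pairs after the operation. Hbb-b1, a beta globin gene, was at 9.52 and 9.48 with AM21 and at 10.83 and 10.86 without (fitted -1.35 ± 0.11). Hba-a1, an alpha globin gene, was at 10.51 and 10.30 against 11.27 and 11.08, and Hba-a3 at 6.53 and 6.07 against 8.18 and 8.75. Globin genes are near copies of each other, so signal may be shared between their probe sets and no single globin gene is certain. The groups did not overlap for any of these 3. At 0 h the differences of Hbb-b1 (0.28 and -0.04) and Hba-a1 (-0.10 and 0.13) were of mixed sign, and those of Hba-a3 were -0.85 and -0.43. Slc4a1, the anion exchanger of the red cell membrane, was at 4.33 and 5.17 against 5.42 and 5.65. Of 5 red cell markers tested, 0 were higher and 3 lower in both pairs, the same counts after centring or quantile normalization. As deposited, the other 2 had opposite signs in the 2 pairs. Over the 12 red cell markers with a probe set, the summed linear level was 2667 and 2564 with AM21 and 4847 and 4586 without at 24 h, against 3907 to 4114 in all pools at 0 h. This sum mostly repeats its brightest members, Hba-a1 and Hbb-b1, so it does not stand for all 12. In pooled tissue, fewer cells of a type and less RNA per cell cannot be told apart. The labels do not say how much blood the tissue held, and its part in these values was not tested.

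Neutrophil and monocyte markers were lower with AM21 in both pairs, led by the calprotectin genes. S100a8 and S100a9 encode the 2 subunits of calprotectin, abundant in neutrophils and monocytes. S100a8 was at 6.42 and 7.42 with AM21 and at 8.09 and 8.54 without. S100a9 was at 5.82 and 6.42 against 7.87 and 7.54, and the groups overlapped for neither gene. Before PHx both genes were near or under the minimum in all pools, from 4.30 to 5.18. Ly6c, a surface protein of monocytes, was at 5.28 and 6.03 against 6.53 and 6.63, and Cybb, the catalytic subunit of the phagocyte NADPH oxidase, differed by -0.37 and -0.22. In all, 6 of 6 tested markers of this list were lower in both pairs, beside 40.7% of all genes, with medians of -0.81 and -0.41. The other 14 of the 20 markers with a probe set had means under the level minimum, so most of the list was not tested. The summed linear level over the 20 was 4463 and 4663 with AM21 and 5322 and 5253 without. Such a sum follows the brightest members of a list, so it does not stand for all 20.

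Macrophage markers followed in the same direction with smaller differences. Timd4, a phosphatidylserine receptor of resident Kupffer cells, was at 4.83 and 5.78 with AM21 and at 5.83 and 6.53 without (fitted -0.87 ± 0.12), and at 0 h its differences were already -0.55 and -0.56. Lyz2, lysozyme, differed by -0.89 and -0.43. Clec4f, a lectin of Kupffer cells, differed by -0.39 and -0.55, and Vsig4, their complement receptor, by -0.68 and -0.26. Of 26 markers 18 were lower and 2 higher in both pairs, beside 40.7% and 19% of all genes. After centring these were 14 and 3, beside 30.1% and 27.2% of all genes. The list medians were -0.13 and -0.17. The pair-fed AM21 array was the lowest of the 4 for 20 of the 26, and for 41.7% of all genes. The ethanol-fed untreated array was the highest for 21 of the 26, and for 28.7% of all genes. The summed linear level over 27 markers was 5696 and 7328 with AM21 and 6678 and 8209 without.

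Markers of other liver cells had no common direction in the 2 pairs. Lyve1, a hyaluronan receptor of sinusoidal endothelium, was higher with AM21, at 9.15 and 9.42 against 8.62 and 8.84, and the scavenger receptor gene Stab1 differed by 0.42 and 0.47. Gata4, a transcription factor of these cells, differed by -0.58 and -0.41, and 5 of the 16 endothelial markers were higher and 5 lower in both pairs. Timp1, an inhibitor of matrix proteases that activated stellate cells and others make, was at 8.06 and 7.62 against 9.13 and 8.60 (fitted -1.02 ± 0.11), with no overlap. Lrat, the retinol-storing enzyme of quiescent stellate cells, differed by 0.34 and 0.69. Of 27 stellate, fibroblast and matrix markers, 6 were higher and 9 lower in both pairs. Of 9 keratin and biliary markers 4 were lower in both pairs, with medians of -0.40 and 0.02, among them Epcam (-1.06 and -0.12) and Krt8 (-0.95 and -0.16). Of 25 lymphocyte markers with a probe set, 3 reached the level minimum: Ccl5, a chemokine of T and NK cells (0.45 and 0.68), Ptprc (-0.32 and -0.21) and Cd4 (0.01 and 0.04). Among 18 secreted hepatocyte proteins 4 were higher and 3 lower in both pairs, with medians of -0.04 and 0.05. After centring these counts were 11 and 1, beside 27.2% and 30.1% of all genes. They were 7 and 2 after quantile normalization, so the balance of this list depends on the scaling. Of the 18, Serpina6, which encodes corticosteroid-binding globulin, was at 9.32 and 9.56 with AM21 against 8.84 and 8.54.

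**Figure D2:**
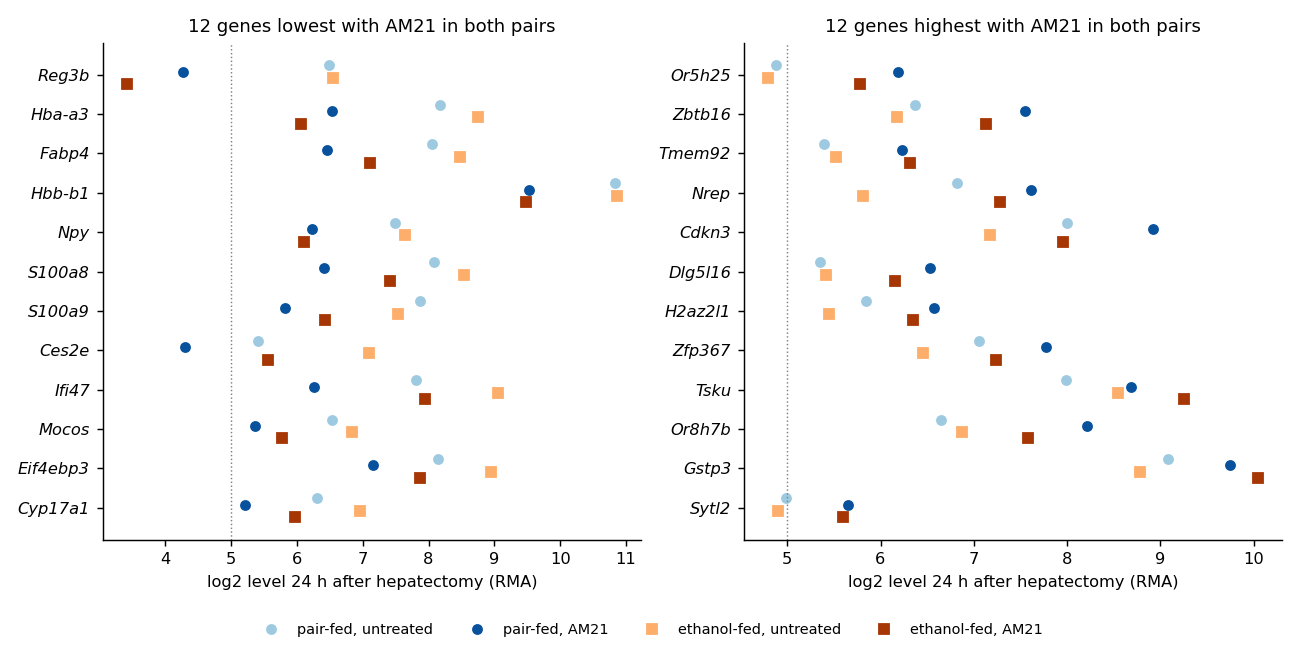
Log2 RMA levels on the 4 arrays 24 h after hepatectomy for the 12 genes lowest (left) and the 12 highest (right) with AM21 by the smaller of the 2 pair differences; each point is 1 array, circles are pair-fed and squares ethanol-fed, dark symbols AM21, and the dotted line is the level minimum of 5. Reg3b has both AM21 points under that line, and within each diet every gene shown has its AM21 point on one side of its untreated point.

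The genes that were highest with AM21 in both pairs had smaller differences, and none was 2-fold higher in both. Zbtb16, a transcriptional repressor that glucocorticoids induce in many tissues, was at 7.55 and 7.13 with AM21 and at 6.37 and 6.18 without (fitted 1.07 ± 0.12, limma adjusted p = 0.243). Nrep, named for neuronal regeneration, was at 7.61 and 7.28 against 6.82 and 5.81. Tsku, a secreted proteoglycan made by hepatocytes, was at 8.69 and 9.25 against 7.99 and 8.55. The groups did not overlap for Zbtb16, Nrep or Tsku. Gstp3, a glutathione transferase whose probe set may share signal with its close copies, was at 9.75 and 10.05 against 9.08 and 8.78. Cdkn3, a phosphatase that acts on cyclin-dependent kinases, was at 8.92 and 7.95 with AM21, which was 0.92 and 0.78 above the untreated array of the same diet, and the groups overlapped across diets. The other members of this group of 12 were Tmem92, Dlg5l16, H2az2l1, the zinc finger gene Zfp367, the vesicle traffic gene Sytl2 and 2 olfactory receptor genes, Or5h25 (1.31 and 0.98) and Or8h7b (1.57 and 0.70).

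Olfactory receptor and microRNA genes above the level minimum were also more often higher than lower with AM21 in both pairs. Of 17 olfactory receptor genes above the level minimum 10 were higher and 3 lower with AM21 in both pairs, and of 34 microRNA genes 22 were higher and 3 lower, beside 19% and 40.7% of all genes. Centring or quantile normalization left these at 11 and 2 and at 22 and 2. The 17 and 34 were those of 1117 and 363 genes that reached the minimum. That minimum was a mean over all 4 arrays, so a gene could pass through its AM21 levels, and these counts support no shared direction. Over all 1117 olfactory receptor genes the medians were 0.15 and 0.05, and over all 363 microRNA genes 0.13 and 0.07. For the 9438 genes under the minimum they were 0.04 and 0.01. Among 4205 probe sets without a single gene symbol, bright by the same 24 h minimum, 88 were at least 2-fold higher and 6 at least 2-fold lower in both pairs. At 0 h the same 2 counts, in the same probe sets, were 4 and 3. These probe sets, too, could pass the 24 h minimum through their AM21 levels, so their counts support no shared direction. The level of Or5h25 without AM21 was 4.88 and 4.80, under the minimum, which the gene met only through its AM21 levels of 6.19 and 5.78. What these probe sets measure was not tested, and their part in the highest genes was not tested.

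Cell division genes were higher with AM21, above all in the pair-fed pair. Hepatocytes of the rat copy their DNA within about a day of PHx and then divide, under the control of cyclins, the replicative helicase and the spindle machinery. Of 39 tested genes of G2 and mitosis, 31 were higher and 0 lower in both pairs, beside 19% and 40.7% of all genes. Their median was 0.94 in the pair-fed and 0.14 in the ethanol-fed pair. On the pair-fed axis 39 of 39 were higher, from 0.35 to 1.39, and 13 by at least 2-fold, and on the ethanol-fed axis 31 were higher, within a range of -0.58 to 0.78. After centring or quantile normalization 33 were higher and 0 lower in both pairs.

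Ccnb1, cyclin B1, was at 9.27 in the pair-fed AM21 liver, 8.10 in the pair-fed untreated, 7.98 in the ethanol-fed AM21 and 7.69 in the ethanol-fed untreated liver. Mki67, the proliferation antigen, was at 9.64, 8.67, 8.64 and 8.44 in the same order. Ckap2, a spindle protein, was at 9.17, 7.98, 7.83 and 7.40, and Ect2, which drives the cleavage furrow, at 7.59, 6.39, 6.55 and 6.07. In each of these 4 genes the pair-fed AM21 array was the highest, and for Mki67 and Ckap2 it exceeded the next array by 0.97 and 1.19. Over the list the pair-fed AM21 array was the highest of the 4 for 39 of 39 genes, which it was for 19.6% of all genes. It exceeded the next array by at least 2-fold for 13 of the 39, and for 27 of the 8728 genes (0.309%). Cenpf, a kinetochore protein, had the largest pair-fed difference among the 4 genes that the naming rule took, at 1.21 with 0.41 in the ethanol-fed pair. The test was passed by 0 of the 39 genes, and 19 had an unadjusted p under 0.05.

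In the ethanol-fed pair alone the difference was small for most of this list. Cdkn3 at 0.78, Ect2 at 0.48 and Cenpf at 0.41 stood above the list median of 0.14, while the whole set of tested genes had a median of -0.03 there and an SD of 0.23 across genes. Its sign was the same in that pair for 31 of the 39 genes, where 3733 of all 8728 genes were higher. The large differences of the pair-fed pair rest on 1 AM21 array of 3 pooled rats. The difference between the diets was not tested, since each diet has 1 pair.

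For DNA replication genes, too, the pair-fed AM21 array was mostly the highest, with smaller differences. Of 34 S phase genes 25 were higher and 0 lower in both pairs, with medians of 0.42 and 0.11, and that array was the highest for 33 of them. Rfc4, a subunit of the clamp loader, was at 8.08, 7.22, 7.37 and 6.88 on the pair-fed AM21, pair-fed untreated, ethanol-fed AM21 and ethanol-fed untreated arrays. Pola2, a subunit of the primase-polymerase complex, differed alike in both pairs, by 0.64 and 0.65. Uhrf1, which maintains DNA methylation through replication, differed by 0.96 and 0.29, and Mcm5 of the helicase by 0.74 and 0.18. Among 16 genes of G1 and of cell cycle inhibition 9 were higher and 3 lower in both pairs. They include the inhibitor gene Cdkn2c (0.93 and 0.40), the pocket protein gene Rbl1 (0.82 and 0.18), the cyclin gene Ccne2 (0.50 and 0.30) and Cdkn1a, which encodes p21 (0.69 and 0.07). Ccnd1, cyclin D1, which carries growth signals into the cycle, differed by 0.14 and 0.06.

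The promoters of the division genes are shown because they share sequence elements. Genes expressed late in the cycle often carry a CHR element, TTTGAA, near the start site, together with CCAAT boxes. Below are the promoters of Cdkn3 at chr15:22502136-22502435 and of Ckap2 at chr16:76541864-76542163 (RefSeq, GRCr8, both plus strand, 250 bases before to 50 after the start). Capitals mark TTTGAA and CCAAT on either strand.
Cdkn3: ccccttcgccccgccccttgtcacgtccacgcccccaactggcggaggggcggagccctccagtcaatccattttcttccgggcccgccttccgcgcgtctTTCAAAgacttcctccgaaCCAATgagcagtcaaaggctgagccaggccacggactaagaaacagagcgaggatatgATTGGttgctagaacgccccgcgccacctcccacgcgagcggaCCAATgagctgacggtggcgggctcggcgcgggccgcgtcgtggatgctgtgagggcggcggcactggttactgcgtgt
Ckap2: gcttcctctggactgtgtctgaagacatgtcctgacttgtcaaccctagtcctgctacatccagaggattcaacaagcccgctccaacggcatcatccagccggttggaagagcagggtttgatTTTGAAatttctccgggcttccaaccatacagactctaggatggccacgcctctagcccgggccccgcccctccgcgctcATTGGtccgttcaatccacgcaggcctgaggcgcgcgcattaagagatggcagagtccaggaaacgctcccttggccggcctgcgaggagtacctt
TTTGAA was present on either strand in 24 of 33 mitosis gene promoters found in the table (72.7%), in 2 of 30 S phase promoters (6.67%), in 12.2% of 7325 promoters of tested genes and in 18.4% of all 33469. CCAAT was present in 75.8%, 66.7%, 39.5% and 37.5% of them. Binding was not measured, and these shares say nothing of the factors that bind such elements.

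Before the operation more of the mitosis genes were lower than higher with AM21. At 0 h the list had medians of -0.20 and -0.45, with 1 gene higher and 23 lower in both pairs, beside 22% and 27.3% of all genes at 0 h. Most of these levels were low: Ccnb1 was at 3.73 and 5.26 with AM21 and at 4.04 and 5.70 without, and Ckap2, at 3.64 and 4.13 against 3.47 and 5.56, had opposite signs in the 2 pairs. In the test of the 24 h difference against the 0 h difference, taken from the change within each pool, Aspm (a spindle pole protein), Ccna2 (cyclin A2) and Wee1 (a kinase that restrains mitosis) were among the 5 highest genes by p. The AM21 difference at 24 h exceeded that at 0 h by 1.35 ± 0.19 for Aspm, 1.30 ± 0.20 for Ccna2 and 1.28 ± 0.20 for Wee1. In the same order, the fitted differences were 0.74, 0.62 and 0.48 at 24 h, and -0.60, -0.68 and -0.80 at 0 h. Part of each value is thus a lower level with AM21 at 0 h. None of the 3 passed, each with a limma adjusted p of 0.220. Aspm and Ccna2 were under the level minimum at 0 h in nearly all pools, so the size of these values is uncertain.

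The described targets of miR-21 had no common direction. Of 35 tested targets 7 were higher and 12 lower with AM21 in both pairs and 16 differed between pairs, beside 19% and 40.7% of all genes. Their medians were -0.05 and -0.01, close to those of all genes (-0.09 and -0.03). After centring the counts were 10 higher and 8 lower and the medians 0.02 and 0.02, so the sign of the list depends on the scaling. Timp3 had the largest fitted difference of the list. It was at 7.06 and 7.19 with AM21 and at 6.55 and 6.70 without, with no overlap (fitted 0.50 ± 0.11, limma adjusted p = 0.436), and its 0 h differences were 0.13 and 0.21. Nfib, a transcription factor, was also higher in both pairs (0.20 and 0.34), and Reck differed by 0.11 and 0.18.

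Pdcd4, often used as a readout of miR-21, was at 7.90 and 8.42 with AM21 and at 8.13 and 8.27 without, so its differences of -0.23 and 0.15 went opposite ways. Spry2 differed by 0.23 and -0.03 and Spry1 by -0.04 and -0.19. The cytoskeletal gene Tpm1 (-0.37 and 0.18) and the small GTPase gene Rhob (-0.66 and 0.24) also had opposite signs. Stat3, a transcription factor of cytokine signalling listed as a target, differed by -0.34 and -0.16, and Sod3, extracellular superoxide dismutase, by -0.41 and -0.14. Ppara, the nuclear receptor of fatty acid oxidation, differed by 0.09 and 0.14. Smad7 was under the level minimum, with differences of -0.33 and -0.05. For Btg2 the platform table lists no probe set under 1 symbol, and it was not used here. MicroRNAs act partly through translation, and protein was not measured.

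The probe set named for the miR-21 gene read low levels. Which part of the transcript it reads is not given in the sources used here, and such a level does not measure whether the microRNA was blocked. At 24 h the level was 4.53 and 4.80 with AM21 and 4.94 and 4.74 without, all under the minimum (differences -0.41 and 0.07). At 0 h it was 5.16 and 4.93 with AM21 and 6.17 and 5.53 without (-1.01 and -0.60). Vmp1, the gene whose end holds the hairpin, was at 7.46 and 7.84 with AM21 at 24 h, with differences of -0.50 and -0.15. Genes of microRNA processing differed little. Ago1, an Argonaute protein, differed by 0.19 and 0.31, and Dgcr8, the partner of Drosha, by 0.13 and 0.06.

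Interferon-response genes differed in the pair-fed pair, where the untreated array stood out. Interferon-stimulated genes are antiviral genes switched on together by type I and type II interferons. Of 34 tested genes of interferon response and antigen presentation, 3 were higher and 14 lower with AM21 in both pairs, beside 19% and 40.7% of all genes. The list medians were -0.43 and 0.00. Irf7, the regulator that amplifies interferon production, was at 7.72 in the pair-fed untreated liver and at 5.37, 5.06 and 5.35 in the pair-fed AM21, ethanol-fed AM21 and ethanol-fed untreated livers. Usp18, which removes the ubiquitin-like protein ISG15, was at 7.48 there and at 5.83, 5.22 and 5.67 in the others. One array, that of 4 pooled pair-fed untreated rats, thus carried these differences.

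Over the list the pair-fed untreated array was the highest of the 4 for 22 of 34 genes, and for 32% of all genes. It was the highest by at least 2-fold for 11 of the 8728 genes (0.126%), and 4 of these 11 were on the interferon list. The 4 are Irf7, Usp18, Mx2, which was at 9.50 against 6.05 to 6.49, and Isg15, at 9.57 against 6.90 to 7.13; the latter pair was named after their values were seen. In the ethanol-fed pair, Mx2 differed by 0.44 and Isg15 by 0.00. Ifi47 was the exception on the list, since it was at least 2-fold lower in both pairs. At 0 h the list medians were 0.06 and -0.03. In an alternative fit of all 8 arrays without either ethanol-fed 24 h array, 3 genes passed (Mx2, Irf7 and Samd9l), which then rests on the pair-fed pair alone.

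**Figure D3:**
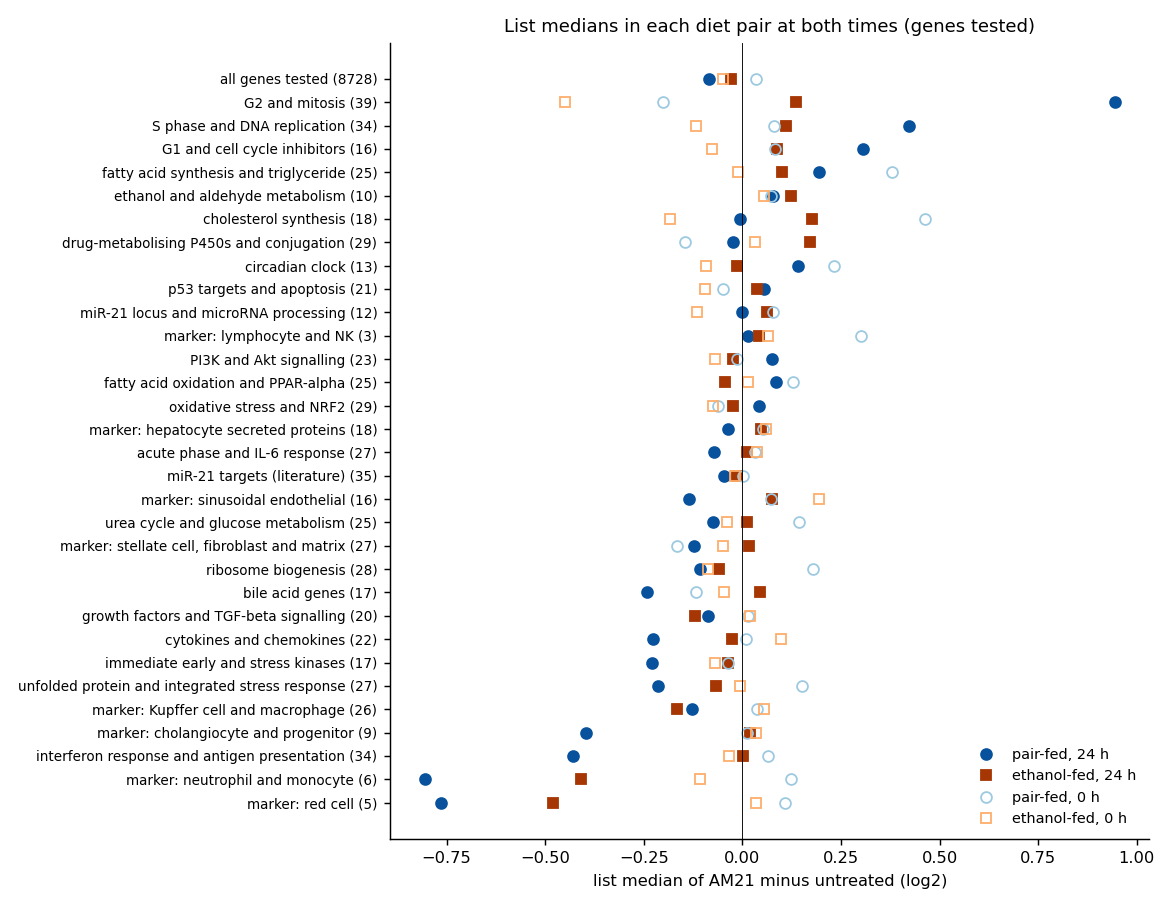
Median AM21 minus untreated log2 difference of each gene list (number of genes tested in parentheses) in the pair-fed pair (circles) and the ethanol-fed pair (squares), at 24 h (filled) and 0 h (open). At 24 h the mitosis list lies at 0.94 in the pair-fed and 0.14 in the ethanol-fed pair, and the red cell and neutrophil markers have the lowest medians in both.

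Of 22 cytokine and chemokine genes 1 was higher and 11 lower with AM21 in both pairs (4 and 8 after centring), with medians of -0.23 and -0.03. Of all genes 19% were higher and 40.7% lower in both pairs, and 27.2% and 30.1% after centring. The other counts of this paragraph stand beside the same shares. Ccl2, which recruits monocytes, was at 5.65 and 5.76 with AM21 and at 6.22 and 6.73 without (fitted -0.77 ± 0.14), and Cxcl16 differed by -1.09 and -0.33. Among 17 immediate early and stress kinase genes 2 were higher and 7 lower, but 6 and 6 after quantile normalization. Their transcription factor gene Jun differed by -1.17 and -0.15 and Myc by -1.14 and -0.02. Dusp1, a phosphatase that switches off stress kinases, differed by -0.60 and -0.37. Of the growth factors, Hgf, the main mitogen of hepatocytes, was at 6.90 and 7.14 against 7.64 and 7.45, with no overlap (-0.74 and -0.31), while Egfr, a receptor for EGF-family mitogens, differed by 0.30 and 0.24. Of 20 genes of growth factors and TGF-beta signalling 2 were higher and 11 lower in both pairs (3 and 8 after centring), and Tgfb1 differed by -0.26 and -0.12.

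In the acute phase list, A2m was the member with the largest fitted difference. A2m encodes alpha-2-macroglobulin, which rats induce strongly in inflammation. It was at 11.55 and 11.56 with AM21 and at 12.14 and 12.05 without (-0.60 and -0.49). At 0 h its differences were far larger, with 5.69 and 5.31 against 8.38 and 7.01 (-2.69 and -1.70). Most other members were nearly equal, with medians of -0.07 and 0.01 over 27 genes.

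Of 27 genes of the unfolded protein and integrated stress response, 20 were lower and 1 higher with AM21 in both pairs, beside 40.7% and 19% of all genes, with medians of -0.21 and -0.07. After centring these were 15 and 2, beside 30.1% and 27.2% of all genes, and 0 of the 27 passed the test. Hyou1 and Creld2, chaperone genes of the reticulum, differed by -0.48 and -0.12 and by -0.50 and -0.19. Ppp1r15a, which restarts translation after stress, differed by -0.12 and -0.71. In the oxidative stress list, Gpx2, a glutathione peroxidase of epithelia, was at 6.34 and 6.03 with AM21 and at 7.30 and 7.03 without (fitted -0.97 ± 0.11), with no overlap. Sod2, the mitochondrial superoxide dismutase, differed by -0.87 and -0.35 and Akr7a3, an aldehyde reductase, by 1.03 and 0.36. This list had 9 genes higher and 10 lower in both pairs. Of 28 ribosome biogenesis genes 15 were lower and 3 higher in both pairs, beside 40.7% and 19% of all genes. After centring these were 8 and 4, beside 30.1% and 27.2% of all genes.

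Several genes of lipid and alcohol metabolism were higher with AM21. Lpin1, which makes diacylglycerol and acts as a coactivator, was at 8.06 and 7.39 with AM21 and at 6.53 and 6.91 without (1.53 and 0.48). Thrsp, a regulator of fat synthesis, was at 10.15 and 9.64 against 9.35 and 9.15, and the desaturase genes Fads1 and Fads2 differed by 0.36 and 0.65 and by 0.34 and 0.63. For Lpin1 and Thrsp the 2 groups did not overlap. Of 25 genes of fatty acid and triglyceride synthesis, 11 were higher and 4 lower in both pairs. Of 10 genes of ethanol and aldehyde metabolism 6 were higher and 1 lower. They include Aldh1b1, a mitochondrial aldehyde dehydrogenase, at 6.21 and 6.07 against 5.64 and 5.45 (fitted 0.59 ± 0.11), and the alcohol dehydrogenase genes Adh6 (0.29 and 0.51) and Adh1c (0.43 and 0.10). Cyp2e1, the ethanol-inducible cytochrome P450, had opposite signs (-0.14 and 0.26).

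Other metabolic lists had members that differed either way, and their counts stand beside 19% higher and 40.7% lower of all genes. Cyp2c11, the male-specific P450 of rat liver, was at 10.82 and 9.80 with AM21 and at 10.58 and 8.58 without (0.24 and 1.22), and Cyp2c55 differed by -1.61 and -0.21. Of 29 P450 and conjugation genes 10 were higher and 4 lower in both pairs (12 and 4 after centring). Cyp7a1, which starts the classical route of bile acid synthesis, differed by 0.23 and 0.44, while its alternative-pathway counterpart Cyp7b1 differed by -0.66 and -0.08. Fatty acid oxidation had 7 genes higher and 7 lower of 25. Cholesterol synthesis had 6 higher and 3 lower of 18, with Insig1 (0.21 and 0.38) and Dhcr7 (0.43 and 0.23) among the higher. After centring its counts were 10 and 1, beside 27.2% and 30.1% of all genes. Arg1, arginase of the urea cycle, differed by -0.22 and -0.27. In PI3K and Akt signalling, Pik3r1, the regulatory subunit of PI3 kinase, differed by 0.42 in both pairs, and among p53 targets Tp53inp1 differed by 0.94 and 0.42 and the death receptor gene Tnfrsf10b by -0.46 and -0.63.

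Of 13 clock genes 5 were higher and 3 lower with AM21 in both pairs. Nr1d1, a repressor of the clock, was at 8.85 and 8.40 with AM21 and at 8.45 and 6.66 without, and Dbp, one of its co-phased output genes, differed by 1.11 and 0.18. Bmal1 and Nfil3, which peak in antiphase to these, differed by -0.82 and -0.36 and by -0.51 and -0.60. At 0 h Nr1d1 already differed by 1.76 in the ethanol-fed pair and by 0.01 in the pair-fed pair. The clock time at which each rat was operated on or killed was not used here, and its part was not tested.

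Some genes differed in opposite directions in the 2 diets. Akr1b7, an aldose reductase-like enzyme, was at 6.68 with AM21 and 5.34 without in pair-fed liver, and at 7.89 and 9.01 in ethanol-fed liver (1.34 and -1.12). Rgs16, which damps G protein signals, was at 5.35 and 4.65 in pair-fed and at 4.87 and 6.52 in ethanol-fed liver. Sult2a1, a steroid and bile acid sulfotransferase, went the other way, with 8.25 against 9.55 in pair-fed and 8.29 against 7.21 in ethanol-fed liver. Its 0 h difference in the pair-fed pair was larger still, at -1.90, as was that of Akr1b7 in the ethanol-fed pair, at -2.65. Further genes higher in the pair-fed and lower in the ethanol-fed pair were Pla2g2d, the linker histone gene H1f5 and the amino acid transporter gene Slc16a10. Those of reverse sign were Serpina7, Apof, Acnat2 and Zfp1. With 1 pair per diet, none of these differences between diets has a test.

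The same pools at 0 h, before the operation and the second injection, give the values that AM21 livers started from. In the limma fit at 0 h, 0 of the 8728 genes (0%) had an adjusted p under 0.05 (smallest 0.130), and 359 had an unadjusted p under 0.05. By the size rule 1 gene was higher and 5 were lower at 0 h. Across genes, the pair-fed and ethanol-fed differences correlated at 24 h with a Pearson r of 0.28, and at 0 h with 0.02. These are descriptions across 8728 genes, which are not independent, and share the normalization of the arrays.

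The AM21 difference at 24 h was also set against that at 0 h, in limma on the change within each pool. One gene of 8728 (0.0115%), Reg3b, had an adjusted p under 0.05 (-2.34 ± 0.20, adjusted p = 0.0411), and 607 genes had an unadjusted p under 0.05. This call has little support: Reg3b met the level minimum only through its 2 untreated levels at 24 h, and its adjusted p was 0.221 without the level minimum and 0.978 without the diet term. Within the pools, Reg3b was 3.60 higher at 24 h than at 0 h in pair-fed untreated and 3.11 in ethanol-fed untreated liver, and 1.34 and 0.67 in the AM21 pools. All 0 h levels and both AM21 levels at 24 h were under the minimum, and these sizes are therefore uncertain. Cyp2c55, a cytochrome P450, was next by p among the genes of negative sign, with its 24 h level 3.22 and 0.50 above 0 h in the AM21 pools and 4.55 and 2.17 above it in the untreated pools. Hbb-b1 (-1.46 ± 0.20) and Fabp4 (-1.36 ± 0.20) came after it, and all 3 had a limma adjusted p of 0.220. The highest was Cyp2b2, a drug-inducible P450 with a close copy in Cyp2b1, at 2.20 ± 0.27 (limma adjusted p = 0.169). It was at 5.58 and 8.04 with AM21 and at 5.66 and 6.45 without at 24 h, and at 6.98 and 9.92 against 8.77 and 11.02 at 0 h.

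**Figure D4:**
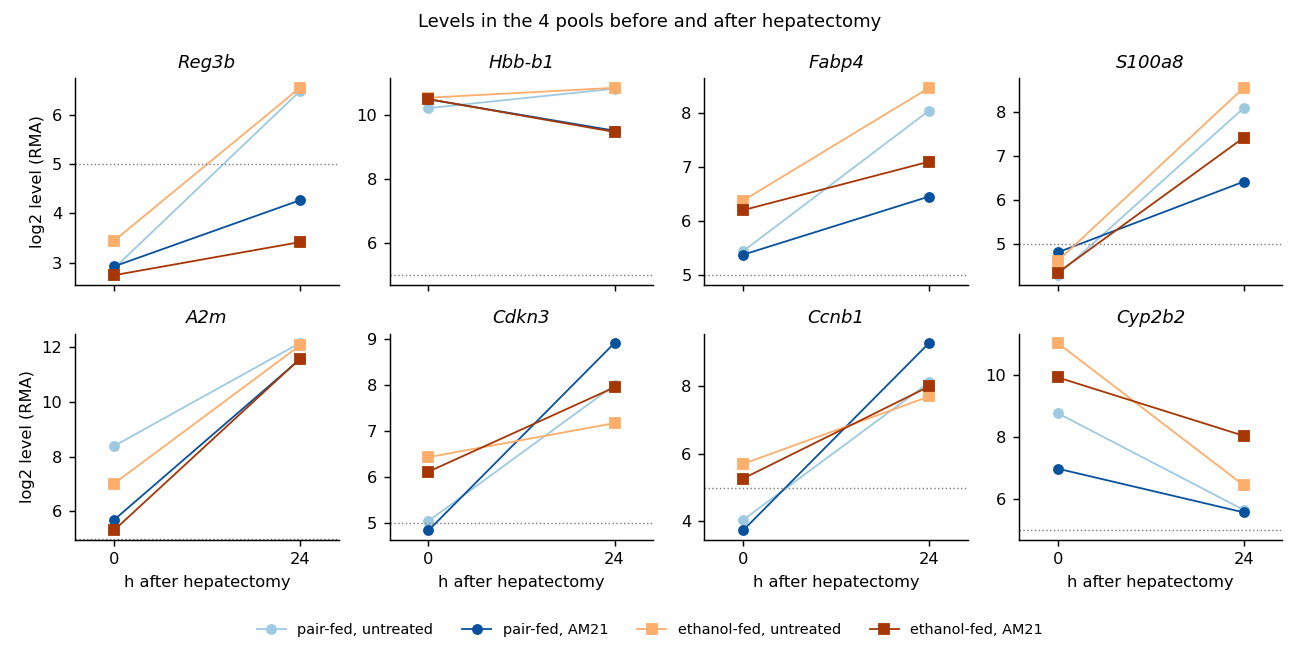
Log2 RMA levels of 8 genes in the 4 pools at 0 h and 24 h after hepatectomy, with 1 line per pool (blue pair-fed, orange to brown ethanol-fed, dark AM21) and the level minimum of 5 dotted. Reg3b, Hbb-b1, Fabp4 and S100a8 lie lower in both AM21 pools at 24 h, A2m differs mainly at 0 h, and Cdkn3 and Ccnb1 end highest in the pair-fed AM21 pool.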

How the data were processed

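Per the submitters' processing notes, the authors made the deposited log2 values with RMA in Affymetrix Expression Console (version not given in the sources used here). Per the labels' protocols, 50 ng of pooled RNA was amplified and labelled with biotin. The number of arrays limits the precision. Of the 36685 probe sets, 18511 had 1 gene symbol, 575 several and 17599 none; 18394 matched the GRCr8 RefSeq table by gene identifier. For 291 genes with more than 1 probe set, the brightest at 24 h was used, and a mean of at least 5 over the 4 arrays was required.

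Differences were fitted with R 4.3.3 and its package limma 3.58.1, with diet and AM21 as terms, followed by eBayes and Benjamini-Hochberg adjustment over 8728 genes and a threshold of 0.05. The same fit was run on the 0 h arrays and on the 24 h minus 0 h change of the 4 pools, which the animal identifiers pair. The size rule was a 2-fold difference the same way in both diet pairs. Scripts were tested on simulated data.

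Named genes were the 12 highest and 12 lowest by the smaller pair difference, the 5 most opposite each way, the 5 highest and lowest by p in the change test, up to 4 members of each of 31 lists, and a fixed set; uncharacterised, pseudogene and microRNA symbols were passed over, except in lists and the fixed set. Of 923 names on the lists, a probe set was found for 805, and 656 reached the level minimum. The comparison, lists and rules were chosen with earlier results of these data known. Alternatives varied the level minimum, probe sets, diet term, scaling, prior, size limit and arrays.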

Additional observations from a re-analysis of the deposited data

Results flagged for a closer look

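For a number of genes the AM21 difference at 24 h had opposite signs in the 2 diets. This was not tested, since each diet has 1 pair of arrays. The ethanol-fed minus the pair-fed difference was -2.46 for Akr1b7, -2.36 for Rgs16, -1.74 for Pla2g2d, -1.39 for H1f5 and -1.27 for Slc16a10, which were higher with AM21 in pair-fed and lower in ethanol-fed liver. It was 2.38 for Sult2a1, 1.47 for Serpina7, 1.33 for Apof, 1.23 for Acnat2 and 1.14 for Zfp1, which had the reverse signs. These 10 genes were picked for that pattern. Among the fixed set of genes, opposite signs were seen for Rhob (0.89), Tpm1 (0.54), Cyp2e1 (0.39), Pdcd4 (0.39), Spry2 (-0.26) and Alb (-0.10).

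The AM21 difference of Reg3b at 24 h minus that at 0 h was -2.34 on the log2 scale (limma adjusted p = 0.0411). The gene met the level minimum only through its untreated 24 h levels, and its adjusted p was 0.221 without that minimum and 0.978 without the diet term.

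Among bright probe sets without a single gene symbol, which no comparison used, 88 were at least 2-fold higher and 6 at least 2-fold lower with AM21 in both pairs at 24 h.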

How the results depend on the processing

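The count of genes past limma's adjusted p of 0.05 at 24 h was 0 as reported and in most alternatives. It was 1 with a prior that follows the mean level (Hbb-b1), and from 0 to 3 when each 24 h array was left out of a fit on all 8 arrays. The 3 (Mx2, Irf7 and Samd9l) came without either ethanol-fed array, and the lone array left in that diet then adds nothing to the AM21 difference. The 10 genes lower by size became 42 at 1.5-fold and 23 when the mean difference had to reach 2-fold. The 0 genes higher by size became 6 without a level minimum, 1 with arrays centred (Or5h25), 1 with quantile normalization (Zbtb16), 25 at 1.5-fold and 6 by the mean difference. The call of Reg3b between 24 h and 0 h became 0 calls without a level minimum and 0 without the diet term.

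Pdcd4 turned from -0.04 to 0.0091 with arrays centred and 0.041 with quantile normalization. Leaving out single arrays gave ranges of -0.23 to 0.15 for Pdcd4, -0.026 to 0.23 for Spry2, -0.37 to 0.18 for Tpm1, -0.66 to 0.24 for Rhob, -0.14 to 0.26 for Cyp2e1 and -0.0074 to 0.092 for Alb. These are the values of the diet pair that stayed whole. The cause of the other changes was not tested. The 12 highest and 12 lowest genes were picked for a shared sign in both pairs, so their direction without an array was fixed by that choice. With 1 pool per group, the spread between animals and the cohort cannot be separated from AM21.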
